A study of Mus musculus with 24 samples.

Results

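MicroRNA gene loci were taken as every mouse gene that the GENCODE annotation types as miRNA, extended by 5 kb on each side, with overlapping regions merged. The annotation held 2202 such genes, 1174 with a Mir symbol and 1028 predicted models such as those with Gm symbols. They formed 1802 regions, 1655 of 1 gene and 147 of 2 or more, with a median length of 10095 bp. Together these regions covered 0.711% of the non-gap bases of the mm10 genome. At least 1 MYT1L site lay in 738 of the 1802 regions, and 1064 held none.

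The study profiled MYT1L, a zinc finger transcription factor of neurons, on chromatin by CUT&RUN, a method that releases the DNA around an antibody-tagged protein with a tethered nuclease. MYT1L was profiled in 4 groups of 3 libraries each: wild-type cortex of E18.5 embryos (E18.5 WT), wild-type prefrontal cortex at birth (P0 WT), and prefrontal cortex of adult mice of 3 months that were heterozygous (adult HET) or wild-type (adult WT) for Myt1l. The strain is C57BL/6J in the labels, whereas the methods name C57BL/6N for the mutant line. The HET mice carried 1 germline allele with a CRISPR frameshift deletion in exon 6. Per the study's methods the E18.5 tissue was also prefrontal cortex and the cells were dissociated before profiling. Each group was represented by 1 list of sites merged over its libraries, with a start and an end for each site and no height, score or depth. There were therefore no replicate values, no test between groups could be made, and every interval given is an exact 95% binomial interval that covers counting error only. The labels give E18.5 and P0 libraries a seq_id of 1 and both adult groups a seq_id of 2, which they do not explain, so that adult stage and whatever this marks cannot be told apart. The lists held 14477 sites of median 593 bp (E18.5), 40698 sites of 276 bp (P0), 56937 sites of 108 bp (adult HET) and 32145 sites of 167 bp (adult WT). The cells were a mixture of types, so a site present in fewer cells and a site bound less often per cell cannot be told apart, and site lists hold no expression by which the tissue or the level of MYT1L could be checked.

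A microRNA gene is transcribed as a long primary transcript, from its own promoter or within the intron or exon of a host gene, and a hairpin is cut out of it. The hairpin yields a mature RNA of about the length of the sequences below, which pairs with messenger RNAs mainly through its seed, bases 2 to 8, and lowers their translation and stability. In the developing cortex miR-9 acts on the switch from progenitors to neurons, miR-124 is a hallmark of neurons and represses the splicing regulator Ptbp1, and let-7 and miR-125 time differentiation opposite to Lin28. miR-9 and miR-124 have been used together with neuronal transcription factors, MYT1L among them, to turn human fibroblasts into neurons.

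Mature sequences of microRNAs whose loci are described below are shown from RefSeq (GRCm38.p6), with the seed in capitals, because several of these loci encode the same or closely related RNAs. They were picked for their known roles in brain and with their values known. Of the 41 bound genes of the brain and let-7 lists, 38 had a mature sequence there. The Mir124a genes were named only.
mmu-miR-9-5p: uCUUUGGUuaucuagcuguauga
mmu-miR-9-3p: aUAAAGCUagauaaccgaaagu
mmu-let-7i-5p: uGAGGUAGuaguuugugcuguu
mmu-let-7c-5p: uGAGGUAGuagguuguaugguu
mmu-miR-125b-5p: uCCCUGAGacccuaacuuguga
mmu-miR-99a-5p: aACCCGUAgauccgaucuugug
mmu-miR-137-3p: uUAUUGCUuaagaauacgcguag
mmu-miR-128-3p: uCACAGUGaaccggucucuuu
mmu-miR-132-3p: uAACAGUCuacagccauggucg
mmu-miR-212-3p: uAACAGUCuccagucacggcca
The pair made from the Mir212/Mir132 locus shared a seed, and the let-7 RNAs of the bound loci, 5 in number, shared another. miR-9-5p came from 3 loci, Mir9-1, Mir9-2 and Mir9-3, and miR-125b-5p from Mir125b-1 and Mir125b-2, so the same mature RNA can be reached from regions that differed in their sites.

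The study names AAAGTT as the MYT1L motif and searched for AAAGTTW, where W is A or T, with repeats masked. Here the shorter word AAAGTT was located, without masking, on both strands in the sites of these loci, so that g or c may follow it. Sites of the brain and let-7 regions held it 45 times in any list, 24 times in sites of 2 or more lists and 4 times in sites of 3 or more. No occurrence lay in sites of all 4 lists. The 4 shared by 3 lists are shown, with the 3 others of these regions that lay within 300 bp of a hairpin and were shared by E18.5 and P0 and 1 such word of Mir344g, another locus with a site in every list, all from the mm10 genome with 12 bases on each side and the word in capitals, read on the strand given. The last 4 were chosen after their positions were seen.
Mir9-2, chr13:83739290-83739319, minus strand: ccaaatacatagAAAGTTtccaggcacaag
Mir9-2, chr13:83740366-83740395, plus strand: atcagtctgtagAAAGTTgattacaatcac
Mir9-2, chr13:83740513-83740542, minus strand: ctccaaagcctcAAAGTTtatgctgggact
Mirlet7i, chr10:122986605-122986634, minus strand: aagcaaaacgaaAAAGTTatgtgggccggc
Mirlet7i, chr10:122985407-122985436, plus strand: ccttccaggcggAAAGTTgtgccgcggccg
Mir125b-1, chr9:41582139-41582168, plus strand: gagagagagagaAAAGTTtgtcagaagtga
Mir99a, chr16:77599281-77599310, minus strand: aaaaagtgtgccAAAGTTtcatgacaacag
Mir344g, chr7:61982460-61982489, plus strand: gatctcaaatctAAAGTTggaaggcaaaag
Of the words shared by 3 lists, the one on the plus strand at Mir9-2 was inside sites of the E18.5, P0 and adult HET lists, and the others inside sites of the E18.5, P0 and adult WT lists. Their distances from the hairpin gene were 417, 1493 and 1640 bp at Mir9-2 and 893 bp at Mirlet7i, and those of the last 4 were 216, 149, 293 and 113 bp. A word this short is frequent: 2118336 of the 17649653 windows of 150 bp in the genome held it on either strand.

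The share of microRNA regions with a site was above that of the genome at E18.5 and P0 and close to it in adult HET mice. At E18.5, 227 of the 1802 regions were bound (12.6%, 11.1 to 14.2), against 5.23% of 10-kb genome tiles. At P0, 393 regions were bound (21.8%, 19.9 to 23.8), against 11.8% of tiles. These shares were 2.41 and 1.86 times those of the tiles. In adult HET mice 365 regions were bound (20.3%, 18.4 to 22.2), against 18.9% of tiles, and in adult WT mice 248 (13.8%, 12.2 to 15.4), against 10.6%, which are ratios of 1.07 and 1.30.

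Protein-coding gene starts, where many MYT1L sites lie, were unevenly spread over these windows. The start of a protein-coding transcript lay in 648 of the 1802 regions (36.0%), against 13.9% of tiles. The 648 regions were bound at shares of 27.8% (24.4 to 31.4) at E18.5, 40.0% (36.2 to 43.9) at P0, 22.2% (19.1 to 25.6) in adult HET mice and 19.6% (16.6 to 22.9) in adult WT mice. Tiles with a coding start were bound at 16.7%, 29.0%, 19.1% and 14.5% in the same order of lists. Windows centred on a start, 5 kb on each side of all 21938 protein-coding genes, were bound at 28.8% at E18.5, 44.1% at P0 and 21.1% in adult HET mice, and in 4051 cases in adult WT mice. A region with a coding start was thus bound more often than a tile with one at E18.5, P0 and in adult WT mice, while windows centred on a start had shares inside the intervals of the regions at E18.5 and in both adult lists and a share above the interval at P0.

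The 1154 regions without a coding start were bound at 4.07% (3.01 to 5.38) at E18.5, 11.6% (9.82 to 13.6) at P0, 19.2% (16.9 to 21.5) in adult HET mice and 10.5% (8.78 to 12.4) in adult WT mice. Genome tiles without a coding start were bound at 3.39%, 8.98%, 18.9% and 9.94%. Only at P0 did the interval of the regions lie above the tile share.

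**Figure D1:**
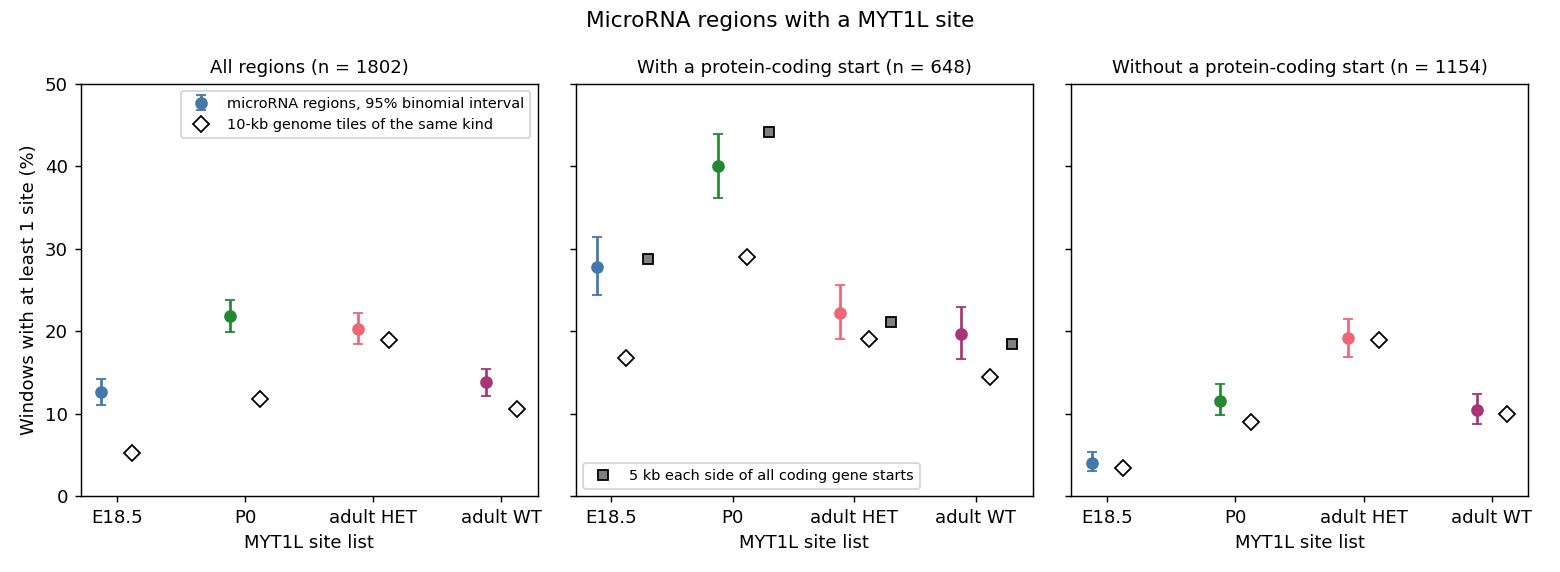
Share of windows with at least 1 MYT1L site (%, y axis) in the E18.5, P0, adult HET and adult WT lists (x axis), for all microRNA regions, those with and those without a protein-coding start. Filled points are microRNA regions with exact 95% binomial intervals open diamonds are 10-kb genome tiles of the same kind, and grey squares are windows centred on protein-coding gene starts. At E18.5 the gap to the tiles is wide over all regions (12.6% against 5.23%) and narrow for those without a start (4.07% against 3.39%).

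Occupancy in the early lists differed with the place of the microRNA relative to its host. The 111 regions whose microRNA lay in a long noncoding host gene were bound at 22.5% (15.1 to 31.4) at E18.5, 39.6% (30.5 to 49.4) at P0, 26.1% (18.2 to 35.3) in adult HET mice and 17.1% (10.6 to 25.4) in adult WT mice. The 646 regions between genes were bound at 5.11% at E18.5 and 12.8% at P0, in 123 cases in adult HET mice and at 9.75% in adult WT mice. Regions in a protein-coding host, 800 in number, lay between these at E18.5 and P0 with 16.4% and 25.8%. In the adult lists they were at 20.2% (HET) and 14.9% (WT), within the intervals of the noncoding hosts. The 245 regions with a microRNA antisense in a protein-coding gene were bound at 15.5% at E18.5, 24.5% at P0, 20.8% in adult HET mice and 19.2% in adult WT mice, the highest WT share of these classes, though inside the interval of the noncoding hosts. The noncoding hosts include the host genes of most Mir9, Mir124a, Mir125b and Mir99a loci. Over all genome tiles the shares were 5.23% (E18.5), 11.8% (P0), 18.9% (adult HET) and 10.6% (adult WT). Each lay inside the interval of the regions between genes, which were thus near the genome share in every list. The host classes were not split by coding start, so whether they differ apart from their coding starts was not tested.

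Regions that held a Mir gene were bound more often than those of predicted models only in the early lists. Of 900 regions with a Mir gene, 16.4% were bound at E18.5 and 27.0% at P0, against 8.76% and 16.6% of the 902 regions of predicted models. In adult mice the shares were 19.7% and 20.8% in the HET list and 13.7% and 13.9% in the WT list, Mir regions first. These classes were not split by coding start either, so whether they differ apart from their coding starts was not tested.

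E18.5 binding at microRNA regions was nearly contained in that of P0. Of the 227 regions bound at E18.5, 210 (92.5%, 88.3 to 95.6) were also bound at P0, which was 53.4% of the 393 regions bound at P0. Of all regions 21.8% were bound at P0 and 12.6% at E18.5. The sites themselves shared bases in 85.6% of the 291 E18.5 sites of these regions, close to the 88.3% found over the whole E18.5 list. The adult lists shared a smaller part of their regions, but site sharing was higher there than over the whole lists. Of the 365 regions bound in adult HET mice, 95 (26.0%) were bound in adult WT mice, against 13.8% of all regions. These were 38.3% of the 248 WT regions, against 20.3% of all regions bound in HET mice. A base was shared with a WT site by 11.8% of the 422 HET sites, against 4.90% of the whole HET list. Of the 304 WT sites 16.4% shared a base with an HET site, against 8.38% of the whole WT list. The commonest patterns were a site in the adult HET list alone (198 regions), in the P0 list alone (121), in E18.5 and P0 (93) and in the adult WT list alone (86), and 35 regions had a site in every list.

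Within the regions, sites of the early lists lay on the hairpin gene more often than those of the adult lists. Beside it, within 1 kb, lay 28.5% of sites at E18.5, 28.9% at P0, 20.9% in adult HET mice and 28.9% in adult WT mice. A site overlapped the hairpin gene in 56 of 291 sites at E18.5 (19.2%), 71 of 691 at P0 (10.3%), 7 of 422 in adult HET mice (1.66%) and 12 of 304 in adult WT mice (3.95%). The median widths of the sites in microRNA regions, which bear on such an overlap, were 666, 296, 111 and 176 bp in the same order. Counted by gene, 57 of the 2202 hairpin genes were overlapped at E18.5, 72 at P0, 7 in adult HET mice and 12 in adult WT mice.

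**Figure D2:**
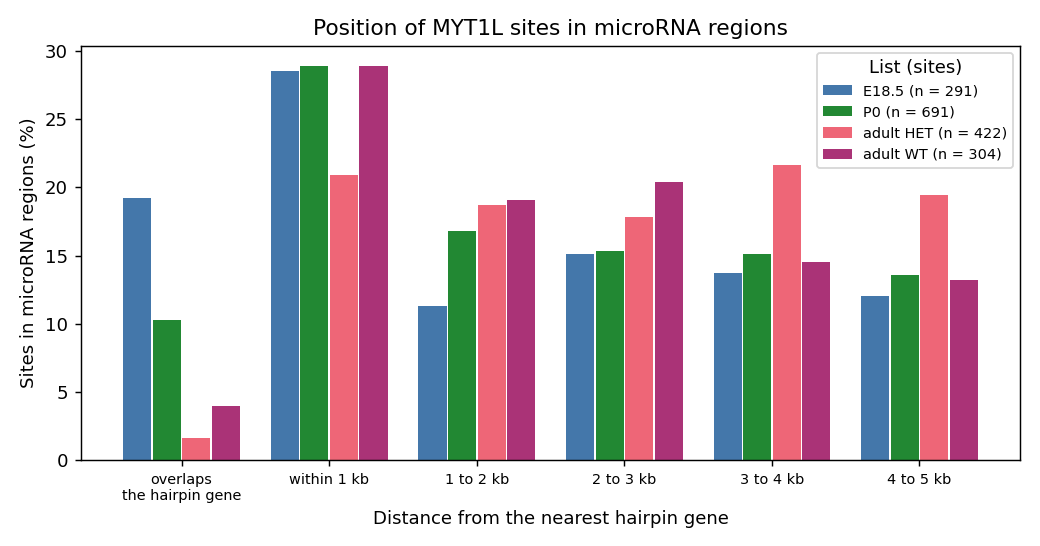
Sites in microRNA regions (% of the sites of each list, y axis) by distance from the nearest hairpin gene (x axis), with bars for E18.5 (291 sites), P0 (691), adult HET (422) and adult WT (304). The bar for sites on the hairpin gene is highest at E18.5 (19.2%) and lowest in adult HET mice (1.66%).

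Sites in microRNA regions were at the promoter of a protein-coding gene (1 kb upstream to 100 bp downstream of a start) in 62.9% of cases at E18.5 and 42.3% at P0, against 33.3% and 22.5% of all other sites. In adult HET mice the shares were 15.4% in the regions and 3.24% elsewhere, and in adult WT mice 31.2% and 7.33%. In each list the sites of microRNA regions were thus at coding promoters more often than the rest of that list. The word AAAGTT within 75 bp of the site midpoint was less frequent in the regions, in 7.56% (4.80 to 11.2) of sites at E18.5 and 11.1% (8.89 to 13.7) at P0, against 15.4% and 14.7% of the other sites. The E18.5 interval lay below the share of 150-bp genome windows with the word, 2118336 of 17649653, and the P0 interval held it. For sites away from coding promoters the shares were 13.9% (7.99 to 21.9) at E18.5 and 14.5% (11.2 to 18.4) at P0. These intervals held the shares of the other sites, 1800 of 9457 at E18.5 and 16.3% at P0. At coding promoters 3.83% (1.55 to 7.72) of E18.5 sites in the regions had the word, below the 8.08% of other promoter sites. The promoter shares were 6.51% and 9.20% at P0, 6.15% and 9.55% in adult HET mice, and 10.5% and 7.63% in adult WT mice, regions first. In these 3 lists the interval of the regions held the other share. In adult HET mice 13.3% of sites in the regions and 14.6% of the others had the word, and in adult WT mice 12.2% and 13.8%. Repeats made up most of the bases in 0.344% of sites in the regions at E18.5, 3.04% at P0, 21.3% in adult HET mice and 8.88% in adult WT mice. Among all other sites the shares were higher in each list, 0.895%, 4.54%, 28.1% and 15.9% in the same order. With sites of under 50% repeat bases alone, 16.4% of regions and 14.0% of tiles were bound in adult HET mice.

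Regions of microRNAs known from neurons and brain were bound mainly at P0. Of 37 such regions, 10 were bound at E18.5 (27.0%, 13.8 to 44.1), 23 at P0 (62.2%, 44.8 to 77.5), 11 in adult HET mice (29.7%, 15.9 to 47.0) and 6 in adult WT mice (16.2%, 6.19 to 32.0). All other microRNA regions were bound at 12.3%, 21.0%, 20.1% and 13.7% in the same order. Of the 10 regions of let-7, miR-99/100 and miR-125, 4, 6, 4 and 1 were bound. These 47 regions were mostly without a coding start: in the 33 of them without one, 27.3% (13.3 to 45.5) were bound at E18.5, 60.6% (42.1 to 77.1) at P0, 33.3% (18.0 to 51.8) in adult HET mice and 18.2% (6.98 to 35.5) in adult WT mice. The other 1121 regions without a coding start were bound at 3.39%, 10.2%, 18.7% and 10.3%. Many of the brain and let-7 regions lie in long noncoding hosts. All 111 regions in such hosts, with or without a coding start, were bound at 22.5%, 39.6%, 26.1% and 17.1%. Whether the brain and let-7 regions differ from others in such hosts was not tested. The genes of the brain and let-7 lists were listed with earlier results of these data known, so these shares describe the lists.

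Lists for other tissues were short, with 1 to 8 regions each, and varied in the regions bound. Of all 1802 microRNA regions 738 were bound in some list. The shares per list were 12.6% (E18.5), 21.8% (P0), 20.3% (adult HET) and 13.8% (adult WT). Whether lists this short differ from these shares was not tested. Of 3 regions of cell proliferation clusters 2 were bound at P0 and 1 at E18.5, and of 2 pluripotency regions 1, at P0. Of 8 epithelial regions 3 were bound in some list, 1 in each list. The 7 regions of vascular and mesenchymal microRNAs held no site in any list. Of 6 muscle regions 1 was bound, in adult WT mice, and of 5 glial regions 1, at P0. Of 4 endocrine and liver regions 1 was bound, in adult HET mice, and of 6 Hox cluster regions 1, in adult WT mice. Of 7 blood and immune regions 4 were bound in some list and 2 in each list, Mir150 in all 4. The imprinted Dlk1-Dio3 cluster, 65 genes in 4 merged regions, had 1 bound region at E18.5, P0 and in adult HET mice, with 1, 1 and 2 sites, and none in adult WT mice. The Sfmbt2 intron cluster, 119 genes in 1 region, held a single site in the adult HET list and another in the adult WT list.

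Of all 1802 microRNA regions 738 were bound in some list, 393 of them at P0 and 121 at P0 alone. Of the 47 brain and let-7 regions, 35 were bound in some list, 29 of them at P0 and 11 at P0 alone. A hairpin gene was overlapped by 4 of their sites at E18.5 (at Mirlet7i, Mir125b-1, Mir125b-2, and 1 site that reached both Mir99a and Mirlet7c-1), by 5 at P0 (at Mirlet7i, Mir132, Mir99a, Mir125b-2 and Mir344) and by none in either adult list. Sites upstream of the hairpin numbered 46 of 76 at P0 and 14 of 25 at E18.5, against 25 and 7 downstream. This lean was not particular to these loci. Over all microRNA regions upstream sites outnumbered downstream ones in each distance bin at P0 and E18.5. Within 1 kb they numbered 117 and 83 at P0 and 52 and 31 at E18.5. In adult mice 9 of 21 HET sites and 4 of 9 WT sites were upstream. At P0, 15 of the 76 sites lay at the promoter of a noncoding gene, in most cases the annotated host, and 3 at a coding promoter.

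**Figure D3:**
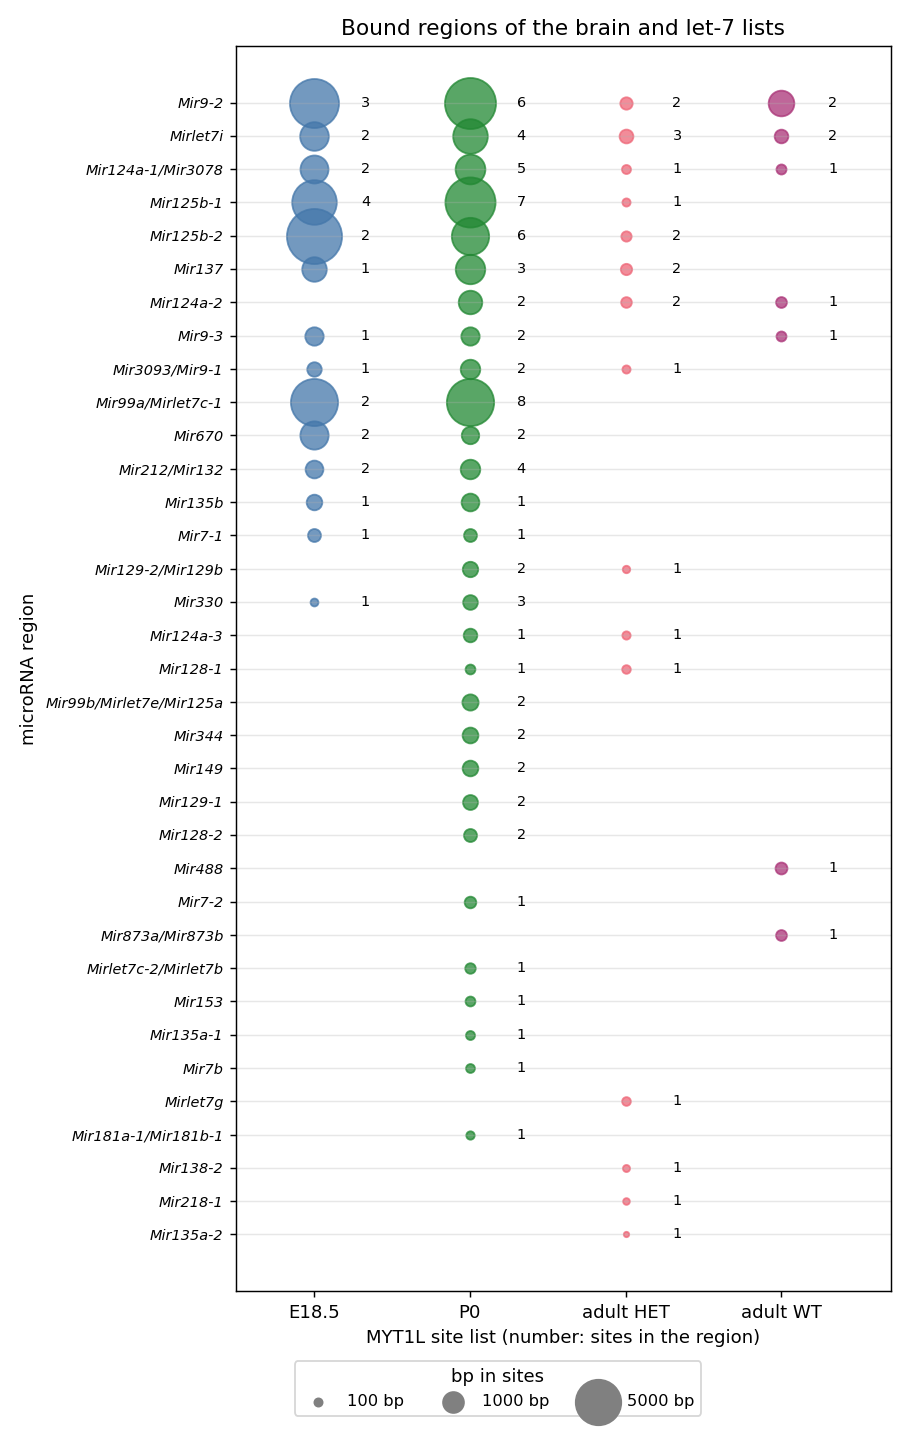
The 35 bound regions of the brain and let-7 lists (rows, by number of lists with a site and then bp in sites) in the E18.5, P0, adult HET and adult WT lists (columns). Circle area grows with the bp of the region inside sites and the number is the count of sites; the widest coverage is at Mir9-2, Mir125b-1, Mir125b-2 and Mir99a/Mirlet7c-1 at E18.5 and P0, and no adult circle exceeds 1557 bp.

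Mir9-2 had the most bases in sites of any microRNA region, summed over the lists. The gene lies at chr13:83738814-83738885 on the plus strand, in the long noncoding host C130071C03Rik. Its region held 3 sites covering 5842 bp at E18.5, 6 sites covering 6335 bp at P0, 2 sites covering 312 bp in adult HET mice and 2 sites covering 1557 bp in adult WT mice. The E18.5 list had 1 unbroken site of 4681 bp that began 305 bp downstream of the hairpin, where P0 had 3 sites, the nearest at 274 bp. A pair of stretches of 72 and 68 bp, chr13:83740304-83740375 and chr13:83740408-83740475, lay inside sites of all 4 lists. Of the 35 regions with a site in every list, 15 had any such shared bases, and Mir9-2 was the 1 of these without a coding start.

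The other Mir9 loci were bound less widely. The Mir9-1 region (chr3, host Gm3764) had 1 site of 452 bp at E18.5, 2 sites at P0 and 1 of 100 bp in adult HET mice, all upstream, with none in adult WT mice. The E18.5 site and the nearer P0 site were at the Gm3764 promoter. Mir9-3 (chr7, host Mir9-3hg) had 1 site of 768 bp at E18.5, 2 at P0 covering 761 bp, and 1 of 183 bp in adult WT mice 278 bp upstream of the hairpin. All 3 Mir9 loci were therefore in the E18.5 and P0 lists, and each adult list held a different pair of them.

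The 3 Mir124a loci were all bound at P0 and, at E18.5, only Mir124a-1 was. Mir124a-1 (chr14) had 2 sites at E18.5 covering 1864 bp and 5 at P0 covering 2115 bp, with those upstream of the hairpin at promoters of the host Mir124a-1hg, and 1 site each in adult HET (137 bp) and adult WT mice (184 bp), both downstream. Mir124a-2 (chr3) had 2 P0 sites of 672 and 628 bp at promoters of Mir124-2hg, 2 adult HET sites of 99 and 120 bp, and 1 adult WT site of 226 bp at the same host's promoter, 207 bp upstream of the hairpin. Mir124a-3 (chr2) had 1 P0 site of 392 bp 720 bp upstream and 1 adult HET site of 104 bp. The nearest E18.5 site was 5.52 kb from Mir124a-2, just outside the flank, and 32.1 kb from Mir124a-3, whose nearest adult WT site was 68.3 kb away.

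Mirlet7i, a let-7 gene on chr10 between annotated genes, was the other let-7 or brain locus with sites in every list besides Mir9-2 and Mir124a-1. A site of 1387 bp at E18.5 and one of 1803 bp at P0 lay over the hairpin. The region had 2 sites at E18.5, 4 at P0, 3 in adult HET mice and 2 in adult WT mice, which covered 1956, 2879, 406 and 396 bp. No adult site reached the hairpin: the nearest was 3107 bp away in HET mice and 769 bp in WT mice. The WT site at 769 bp lay within sites of E18.5 and P0 and carried the word printed above, while an HET site 4296 bp upstream shared bases with a P0 site.

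The miR-125b and miR-99a/let-7c genes sit in long noncoding hosts, Mir125b-1 on chr9 in 3110039I08Rik, and Mir99a, Mirlet7c-1 and Mir125b-2 on chr16 in Mir99ahg. Mir125b-1 had 4 sites covering 4818 bp at E18.5, 7 covering 6103 bp at P0 and 1 of 100 bp in adult HET mice. Mir125b-2 had 2 sites covering 7392 bp at E18.5, 6 covering 3354 bp at P0 and 2 covering 196 bp in adult HET mice. The Mir99a/Mirlet7c-1 region had 2 sites covering 5391 bp at E18.5 and 8 covering 5420 bp at P0, and none in either adult list. Unlike those of Mir125b-1 and Mir125b-2, it held a protein-coding start, though none of its sites was at a coding promoter. Adult WT mice had no site in any of these 3 regions, the nearest lying 24.7, 27.2 and 17.9 kb from the hairpins of Mir125b-1, Mir125b-2 and Mir99a/Mirlet7c-1. The related locus of Mir100 and Mirlet7a-2 held no site in any list, though P0 had one 5.83 kb away, just outside the flank.

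**Figure D4:**
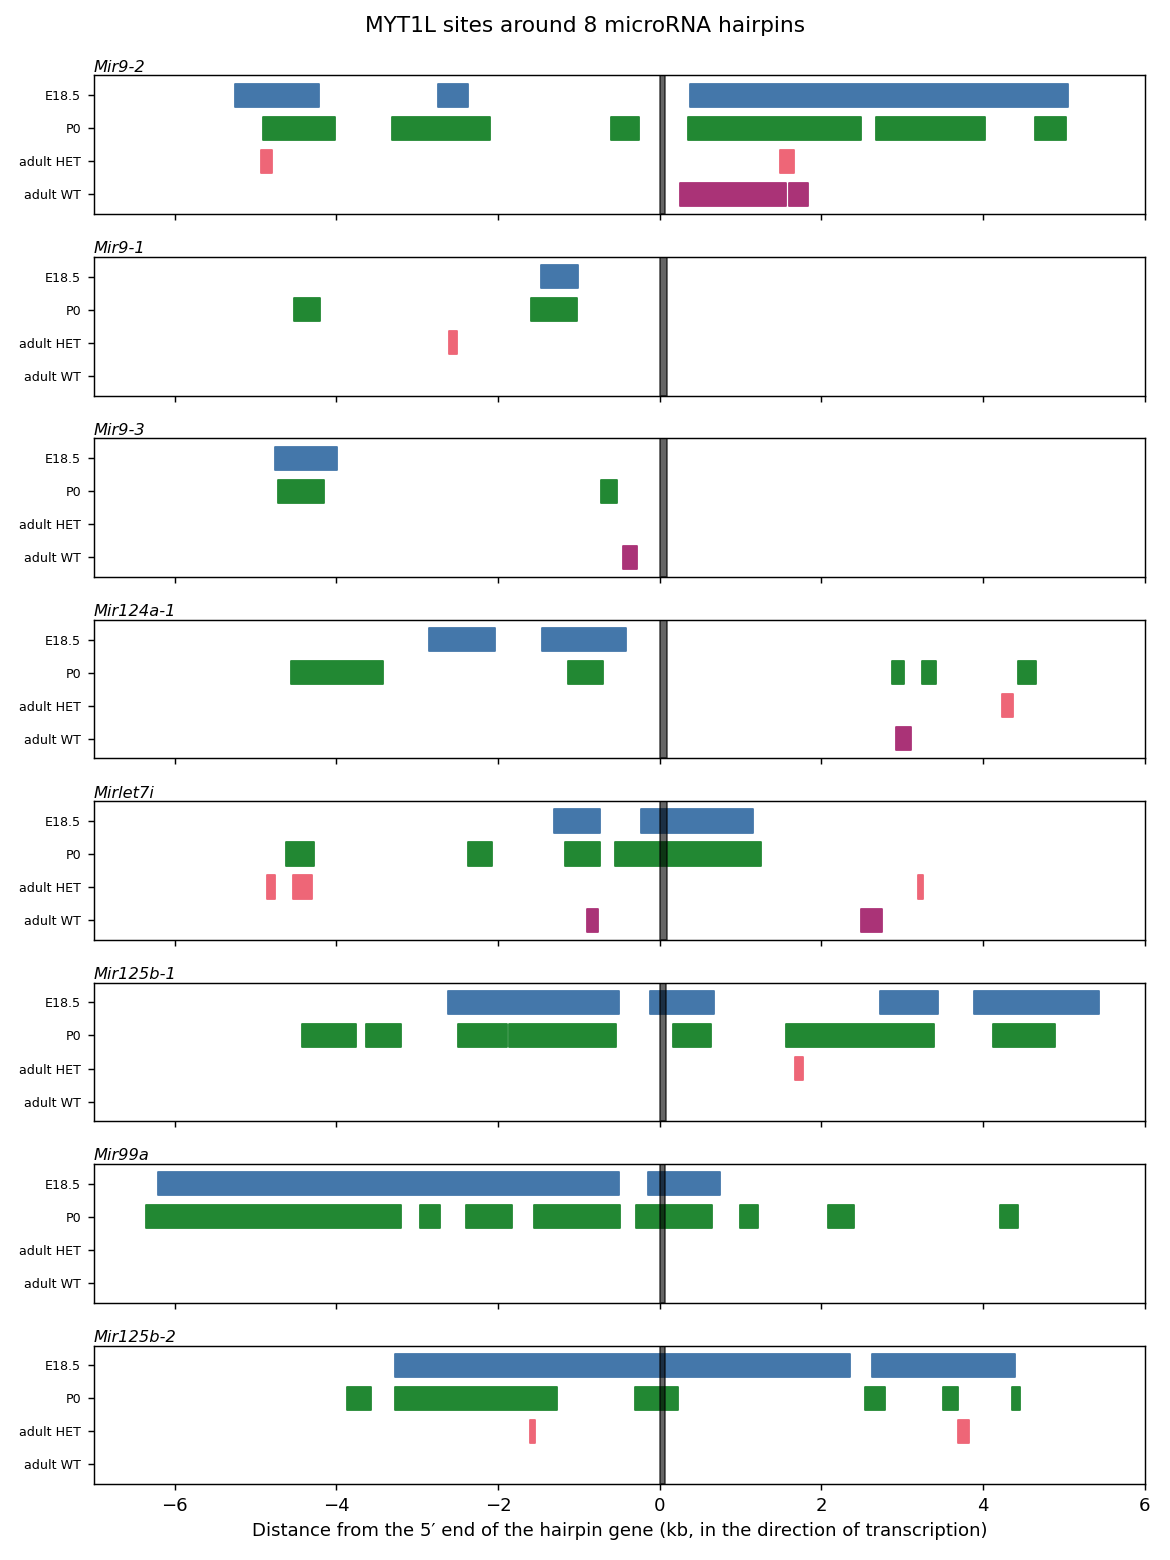
MYT1L sites of the E18.5, P0, adult HET and adult WT lists (rows in each panel) around 8 microRNA hairpins, by distance from the 5′ end of the hairpin gene in kb in the direction of transcription (x axis). The dark bar at 0 is the hairpin gene and coloured bars are sites. In every panel some E18.5 and P0 bars share bases, while other bars are in 1 of these lists only. Most adult bars are narrow or absent, the widest being 1316 bp at Mir9-2 in adult WT mice.

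Several other neuronal loci were bound at P0. Mir137, which acts in neuronal maturation, lies in Gm26871 on chr3 and had 1 site of 1418 bp at E18.5, 3 at P0 covering 2073 bp and 2 in adult HET mice covering 250 bp. The Mir212/Mir132 pair on chr11, whose transcription is induced by neuronal activity through CREB, had 2 sites at E18.5 at the promoters of Hic1 and Ovca2. At P0 it had 4, among them 1 of 191 bp on the Mir132 hairpin and 1 at the promoter of the host 1700016P03Rik. The miR-128 genes, which restrain neuronal excitability in mice, had their nearest P0 sites 251 bp (Mir128-1, in R3hdm1) and 13 bp (Mir128-2, in Arpp21) from the hairpin. None of these 4 regions held an adult WT site. Mir153, in Ptprn2, had 1 P0 site of 176 bp 133 bp upstream, and Mir129-1, Mir149, Mir7b and Mir181a-1/Mir181b-1 were likewise in the P0 list alone.

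Of all 1802 microRNA regions 1064 held no site in any list. Unbound in all lists were 12 of the 47 brain and let-7 regions. They included both Mir29 clusters, whose nearest sites in any list were 11.2 kb (adult HET, Mir29a/Mir29b-1) and 16.8 kb (adult HET, Mir29b-2/Mir29c) away, and the Mir221/Mir222 pair, whose nearest P0 site was 610 kb and nearest adult WT site 5.56 kb away. The Mirlet7d/Mirlet7f-1/Mirlet7a-1 cluster had its nearest sites between 6.80 kb (P0) and 8.40 kb (adult WT) away. Outside the 5-kb flank such sites were not counted.

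At the brain and let-7 regions the adult HET list had more bound regions than the adult WT list (15 and 7 of 47) and more sites (21 and 9), as it did over the other 1755 regions (19.9% and 13.7%). The HET sites were narrower, with a median of 104 bp against 226 bp in WT. A base was shared with a WT site by 1 of the 21 HET sites, at Mir9-2, and with an HET site by 2 of the 9 WT sites. With a P0 site a base was shared by 5 of the 21 HET sites (23.8%) and 4 of the 9 WT sites (44.4%). Over all microRNA regions these shares were 10.7% of HET and 24.3% of WT sites, and over the whole lists 3.42% and 10.4%. Whether HET and WT differ could not be tested, since each is 1 merged list and the depth behind it is unknown.

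Most of the 35 regions bound in all 4 lists held a coding start. It was in 30 of them, against 36.0% of all 1802 regions. Predicted models only were held by 19 of the 35, near the share over all regions (902 of 1802). Of the 35, 11 held a gene within or antisense to a histone gene, such as Gm44367/Gm44357 antisense to Hist1h2ai, which had 4 sites at E18.5, 6 at P0, 1 in adult HET mice and 3 in adult WT mice. Histone regions, grouped after these values were seen, numbered 16, of which 14 were bound at E18.5, 14 at P0, 11 in adult HET mice and 14 in adult WT mice. Whether these models are microRNAs was not tested. Without the 16 regions the shares bound were 11.9%, 21.2%, 19.8% and 13.1%, close to those of all regions.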

How the data were processed

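CUT&RUN sites were deposited as 4 lists, 1 for each MYT1L group, with chromosome, start and end on mm10 and no other value. The study used nf-core/cutandrun. Which caller and cutoff gave the sites is not given in the sources used here, and 12 libraries made with IgG were not analysed here. Some adult titles name the antibody differently, and their descriptions name the Myt1l list. Members and gene lists were chosen with earlier results of these data known. GENCODE M21 miRNA genes were extended by 5 kb, and a region was bound if a site shared at least 1 bp with it. Shares have exact (Clopper-Pearson) 95% intervals. Tiles of 10 kb with under 50% gap bases were the background, and tiles of other lengths for the other flanks. Regions were named if in the brain or let-7 lists, bound in all 4 lists, among the 10 with most bp in a list, overlapped at the hairpin in 2 or more lists, or in another tissue list and bound in 2 or more. Alternatives were the flank, merging, Mir genes only, coding starts, site width and repeats. Python 3.11.15, pandas 2.3.3 and scipy 1.17.1 were used, and overlap counts were checked against bedtools 2.31.1 and on simulated data.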

Additional observations from a re-analysis of the deposited data

How the results depend on the processing

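The tile share was counted anew for each alternative, with tiles of other lengths for the other flanks. With a 1-kb flank the shares of microRNA regions bound were 6.48% at E18.5, 9.75% at P0 and 4.79% in adult HET and in adult WT mice. The tile shares were then 1.41% at E18.5, 3.09% at P0 and 2.53% in adult WT mice, with ratios of 4.59, 3.15 and 1.89. With a 10-kb flank the shares were 19.5%, 34.4%, 33.5% and 22.6% (E18.5, P0, adult HET, adult WT). The tile shares were 9.57% at E18.5 and 20.8% at P0, with ratios of 2.04 and 1.65. With Mir genes only, the shares were 16.3% at E18.5 and 26.7% at P0, with ratios of 3.12 and 2.28. Without regions that hold a coding start, the shares were 4.07% at E18.5, 11.6% at P0 and 10.5% in adult WT mice, with ratios of 1.20, 1.29 and 1.05. With sites wider than the median of their list, the shares were 7.77%, 14.1%, 11.2% and 7.16% in the order of lists above, with ratios of 2.79 at E18.5 and 2.11 at P0. With sites of under 50% repeat bases, the adult HET share was 16.4%, against 14.0% of tiles. The other 34 values under alternatives moved by less than their counting interval.

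No paired analysis was possible because each group is 1 merged list, and for the same reason leaving out single libraries was not run. The files hold no depth, site height or background libraries, so a region without a site is one where none was listed. List lengths and site widths differ between stages, and the calling is not described in the sources used here.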

Other observations

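The miR-344 genes, a rodent family on chromosome 7, form a cluster of 13 genes over 402 kb (chr7:61683124-62085310) in 9 regions, which was looked at after its values were seen. A site was in 2 of the 9 regions at E18.5, 6 at P0, 4 in adult HET mice and 2 in adult WT mice. Over all microRNA regions the shares bound were 12.6%, 21.8%, 20.3% and 13.8% in the same order. Whether the cluster differs from these shares was not tested. The P0 sites lay on 4 hairpin genes, Mir344c, Mir344, Mir344-2 and Mir344f, and 8 bp from Mir344g. E18.5 sites lay on Mir344c and Mir344g, and 1 adult HET site of 153 bp lay on Mir344b. Mature miR-344-5p, miR-344c-5p and miR-344g-5p share the seed GUCAGGC. These copies are similar in sequence, and how reads that match several copies were placed is not given in the sources used here.

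Among microRNAs inside protein-coding genes without a coding start nearby, Mir701 in Ttc28 had 2 sites at E18.5 covering 2081 bp and 4 at P0 covering 2237 bp, and Mir1955 in Phf21a had 2 covering 1225 bp and 5 covering 1507 bp. Both hairpin genes were overlapped at E18.5 and P0 and neither region had an adult site. The region of the Mir25/Mir93/Mir106b cluster in Mcm7, a proliferation cluster, did hold a coding start. It had 2 sites each at E18.5 and P0, at least 3753 bp from a hairpin.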
